A study of Mus musculus with 6 samples.

Results

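The genes described here are those of the NADPH oxidases and the inducible nitric oxide synthase, the enzymes with which the gut lining makes hydrogen peroxide, superoxide and nitric oxide. They are 10 genes of the 55849 in the deposited tables, chosen by name: Duox1, Duox2, Duoxa1, Duoxa2, Nox1, Noxa1, Noxo1, Cyba, Nos2 and Nox4. RNA came from the descending colon of untreated mice aged 12 weeks, with 3 libraries of the wild-type C57BL/6 strain and 3 of Muc2-/- animals, which lack the main gel-forming mucin of the colon and serve as a model of chronic colitis. The labels give neither the sex, the strain background of the mutant nor the part of Muc2 that is removed, and they do not say outright that the replicates are separate animals. The p-values therefore measure the spread between these libraries, which may be technical. The sample titles name crypts and the protocols name pieces of colon, and smooth muscle transcripts were abundant in every library. The measurement is of mixed tissue, in which a change in the number of cells of a type and a change in RNA per cell cannot be told apart.

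An NADPH oxidase passes electrons from NADPH across a membrane to oxygen. In the colon, DUOX2 sits at the apical face of the epithelium with its maturation factor DUOXA2 and releases hydrogen peroxide towards the lumen. NOX1 makes superoxide and needs the membrane partner p22phox (from Cyba), the organiser NOXO1 and the activator NOXA1. NOX4, active with p22phox alone, is known mainly from kidney, vessel walls and fibroblasts. NOS2 makes nitric oxide from arginine once inflammatory signals have induced it, in epithelium and in macrophages. Setting Muc2-/- beside wild-type colon compares the levels of these transcripts between the genotypes.

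The Duox genes form 1 cluster on chromosome 2, in coordinates as the count table lists them. Duox2 (122109728 to 122128930, minus strand) and Duoxa2 (122129381 to 122133366, plus strand) point away from each other with 450 bases between their starts. Duoxa1 (122132672 to 122144211, minus strand) and Duox1 (122146153 to 122178453, plus strand) are arranged the same way with 1941 bases between them. The ends of Duoxa2 and Duoxa1 overlap by 695 bases on opposite strands. The strand setting of the counting is not known here, so reads from the shared bases cannot be assigned with certainty. Noxo1 shares 2581 bases with Tbl3 on the other strand of chromosome 17, and Noxa1 overlaps Entpd8 by 50 bases. The listed body of Nox1 on chromosome X overlaps Arl13a by 20528 bases and Cstf2 by 399 bases on the other strand, and Xkrx by 13034 bases on its own strand. Arl13a had 0 counts in all 6 libraries, Xkrx 0 to 17 and Cstf2 527 to 1059. The values of Duoxa1, Duoxa2 and Noxo1 in particular carry that uncertainty.

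**Figure D1:**
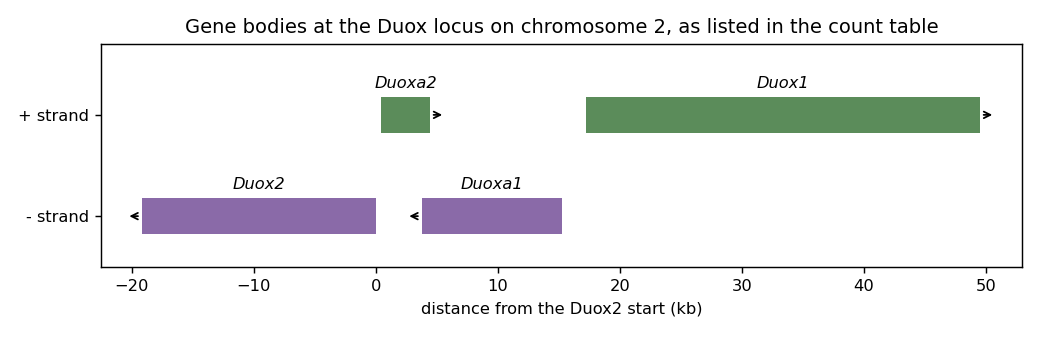
Gene bodies of Duox2, Duoxa2, Duoxa1 and Duox1 by distance in kilobases from the start of Duox2, with each strand on its own row and arrows in the direction of transcription. Duox2 and Duoxa2 start 450 bases apart and run in opposite directions, and Duoxa2 and Duoxa1 overlap by 695 bases.

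The sequences between Duox2 and Duoxa2 are shown because a short shared stretch lies upstream of both genes while the ratio of their transcripts did not overlap between the genotypes, as described further on. Each is the 250 bases before the RefSeq start on build GRCm38.p6, read 5′ to 3′ on the gene's own strand, Duox2 at chr2:122298228-122298477 on the minus strand and Duoxa2 at chr2:122298650-122298899 on the plus strand. RefSeq places these starts 672 bases apart on that build.
Duox2: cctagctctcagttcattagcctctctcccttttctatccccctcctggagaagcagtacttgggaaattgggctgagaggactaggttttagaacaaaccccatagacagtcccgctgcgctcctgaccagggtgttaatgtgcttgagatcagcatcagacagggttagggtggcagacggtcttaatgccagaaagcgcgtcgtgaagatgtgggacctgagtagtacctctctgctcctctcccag
Duoxa2: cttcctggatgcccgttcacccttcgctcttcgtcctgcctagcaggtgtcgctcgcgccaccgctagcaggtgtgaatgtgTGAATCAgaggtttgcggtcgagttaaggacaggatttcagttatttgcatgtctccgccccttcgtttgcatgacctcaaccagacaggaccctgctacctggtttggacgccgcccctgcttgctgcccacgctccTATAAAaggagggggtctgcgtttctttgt
Capitals mark matches to 5 motifs searched on both strands: NF-kappaB (GGG and TTTCC with any 2 bases between), the STAT or gamma activated site (TTC and GAA with any 3 between), the interferon response element (GAAA and GAAA with any 2 between), AP-1 (TGANTCA) and the TATA box (TATAAA). Duoxa2 held an AP-1 match, TGAATCA, that began 168 bases before the start, and a TATA box match that began 30 bases before it. The Duox2 window held no match to these letters. Of 32851 RefSeq windows of that length, 6.75% held the AP-1 letters and 12.4% the TATA letters. Among the 9 members with a RefSeq window, the other matches were an NF-kappaB match in Nox1 (letters in 1.41% of windows) and a STAT match, TTCTAGGAA, in Nox4 (7.02%). A match describes the letters and is not evidence of binding, and the interferon element (2.98% of windows) matched no member.

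Total counts ran from 16395432 to 20336459 per library. Muc2 itself ranged from 2480 to 6977 CPM (read counts scaled to the library total) in the wild-type libraries. Its Muc2-/- range, 757 to 1021 CPM, did not overlap that (edgeR adjusted p = 0.103). The libraries also differed in a trend with gene length. Spearman's rho of transcript length against a gene's departure from its mean over the libraries (16107 genes, a description) was between -0.00139 and 0.163 in 5 of them but -0.249 in Muc2-/- 2. That library thus held relatively more of short transcripts, which is given below beside the genes it touches.

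Among the oxidase genes the widest separation of the genotypes was in Nos2, whose lowest Muc2-/- library lay above the highest wild-type library. Duoxa2 and Cyba were also higher in all 3 Muc2-/- libraries than in any wild-type library, and Noxa1 was lower in all 3. Duox2, Duoxa1, Nox1 and Noxo1 overlapped between the groups. Of the 10 genes 8 had enough counts to be tested, and Duox1 and Nox4 did not. No member passed an adjusted p of 0.05 in edgeR's quasi-likelihood test, against 0.106% of the 16107 tested genes called higher, 0.0186% called lower and 0.124% in either direction. At an unadjusted p under 0.05, 3 members were higher and 1 lower, where the background was 8.23% and 12.7% of genes. Among the 8 tested members, groups did not overlap in 3 upward and 1 downward, against 13.3% and 15.2% of all tested genes. The median log2 fold change of the 8 was 0.87, and that of all tested genes was -0.01. DESeq2 called Nos2, Duoxa2 and Cyba higher and Nox4 lower, with 3.24% and 6.61% of the genes it tested called in those directions. limma on the deposited FPKM called 0 members.

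**Figure D2:**
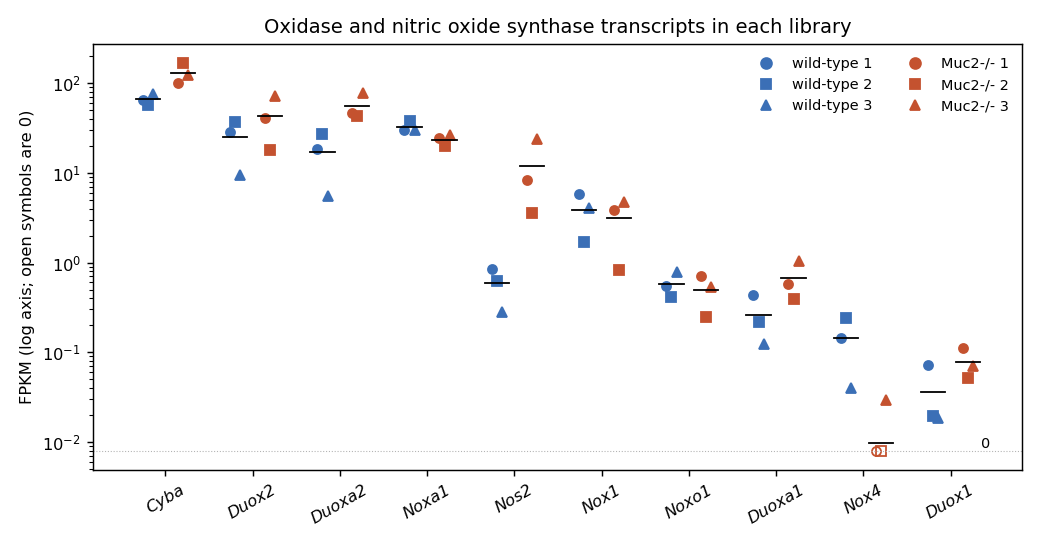
Level of each of the 10 genes in FPKM (fragments scaled for transcript length and library size, log axis) in the 3 wild-type and 3 Muc2-/- libraries, with a bar at each group's mean and open symbols where the value is 0. Nos2 and Cyba are separated between the genotypes, whereas Duox2 and Nox1 spread more than 3-fold inside each group.

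**Figure D3:**
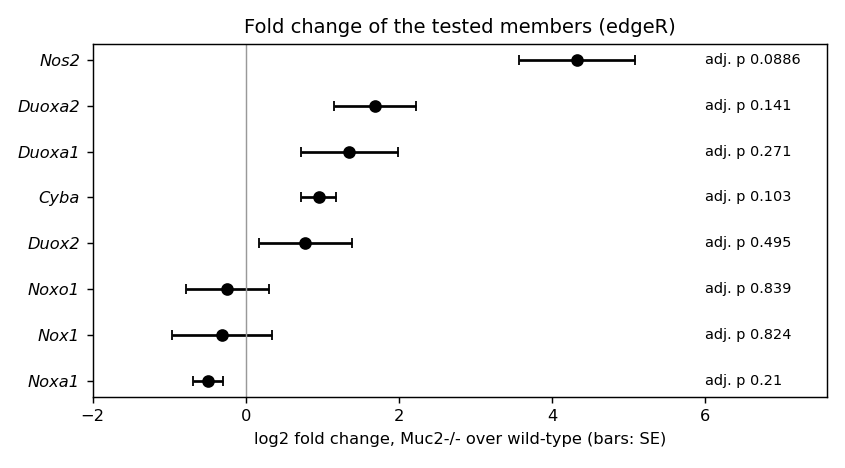
Fold change on the log2 scale, Muc2-/- over wild-type, of the 8 tested genes, with the standard error as bars and the adjusted p of edgeR beside each. Nos2 stands at 4.32, Duoxa2 at 1.68 and Cyba at 0.95, and no adjusted p is under 0.05.

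Nos2 (chromosome 11, 78811613 to 78851080) was a rare transcript in wild-type colon. It stood at 0.847, 0.624 and 0.284 FPKM in wild-type 1, 2 and 3, from 70, 54 and 26 counts. In Muc2-/- 1, 2 and 3 it stood at 8.39, 3.56 and 23.8 FPKM, from 630, 235 and 1706 counts. Every Muc2-/- library was above every wild-type library, and the Muc2-/- libraries differed among themselves by 6.68-fold. The group means were 0.585 ± 0.284 and 11.9 ± 10.6 FPKM (SD, n = 3 each). edgeR gave a log2 fold change of 4.32 (SE 0.76), with an adjusted p of 0.0886, not past 0.05. Over 16 alternative fits the adjusted p lay between 4.10e-10 and 0.276, and 4 of them called Nos2 (DESeq2, no filter on low counts, the replicate number as a block, and the fit without wild-type 3). Without wild-type 3 the adjusted p of Nos2 was 0.0336, in a fit that called 1.62% of genes higher and 5.68% lower. The difference was positive in all 16. When 1 library was left out at a time the log2 fold change stayed between 3.35 and 4.80.

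Neutrophil markers stood higher in Muc2-/-, with none called by edgeR. S100a8, which neutrophils make in quantity and which is named here after its values were seen, stood at 0, 0.222 and 0 FPKM in wild-type 1, 2 and 3 and at 59.5, 6.40 and 219 FPKM in Muc2-/- 1, 2 and 3. Of the 12 neutrophil markers listed, 6 had enough counts to be tested, and all 6 were higher in every Muc2-/- library (DESeq2 called 6). The order of S100a8 within Muc2-/- was that of Nos2, highest in library 3 and lowest in library 2. Cd177 and the summed neutrophil and macrophage markers had that order too, as did the members Duox2, Duoxa2, Duoxa1, Nox1 and Noxa1. Ly6g, at 645, 428 and 579 FPKM in Muc2-/- 1, 2 and 3, was highest in library 1. The summed level of the 12 neutrophil markers ran from 154 to 281 FPKM in wild-type and from 579 to 1199 FPKM in Muc2-/-, most of it from Ly6g and Cd177. In wild-type 1, 2 and 3 Ly6g stood at 137, 79.2 and 250 FPKM and Cd177 at 81.7, 74.3 and 31.3 FPKM. S100a9, Retnlg, Cxcr2, Mpo, Elane and Ngp were at 0 counts in all wild-type libraries, and Elane and Ngp in all Muc2-/- libraries too. The listed markers thus disagree in wild-type, and the sum cannot be read as a measure of neutrophils alone. The summed level of 12 macrophage markers overlapped between the groups (119 to 279 FPKM in wild-type, 195 to 293 FPKM in Muc2-/-). Lyz2 was the largest part of that sum in every wild-type library. Of the 12 macrophage markers 11 had a positive log2 fold change, and 7 did not overlap between the groups (13.3% of all tested genes upward). At an unadjusted p under 0.05, 7 were higher (8.23% of all tested genes). edgeR called 0 and DESeq2 called 3 (3.24% of the genes it tested). The part of these cells in the Nos2 difference was not tested.

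**Figure D4:**
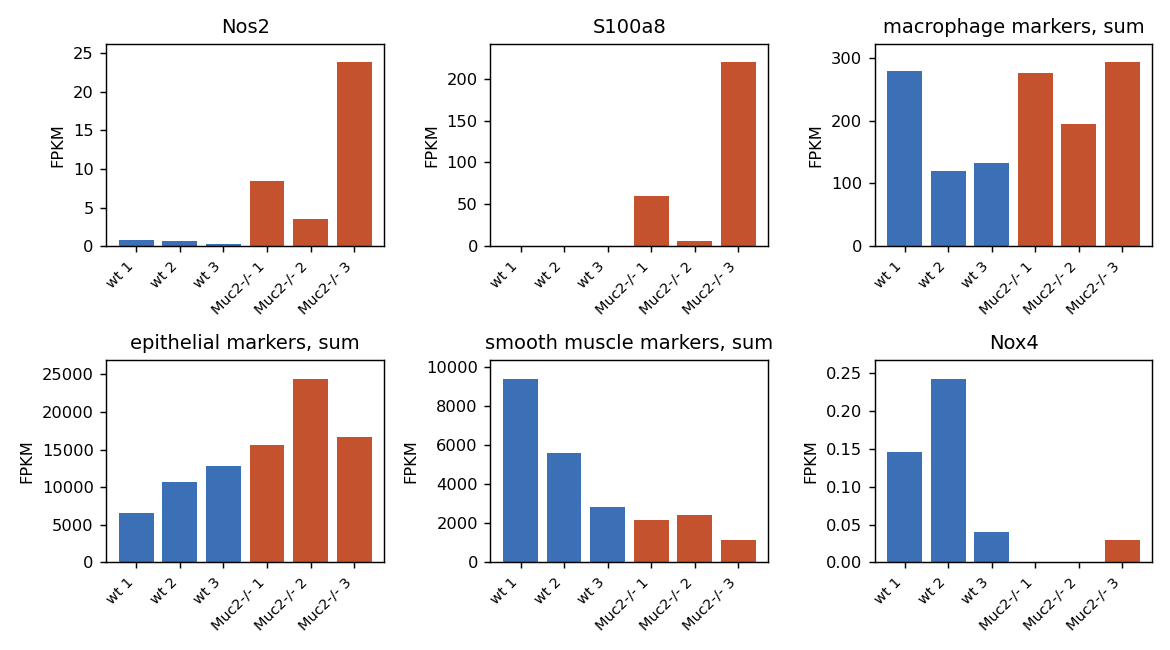
Levels in FPKM, on axes that start at 0, of Nos2, S100a8, Nox4 and the summed macrophage, epithelial and smooth muscle markers in each library (wt is wild-type). Nos2, S100a8 and the macrophage sum share the order of the Muc2-/- libraries. The epithelial sum is higher and the smooth muscle sum lower in every Muc2-/- library, and macrophage sums overlap between the genotypes.

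The genes that supply and use nitric oxide had fold changes of both signs, none past the threshold in edgeR. Of 21 listed genes of nitric oxide and arginine metabolism 20 were tested, edgeR called 0, and unadjusted 6 were higher and 4 lower (DESeq2: 3 and 3). Their median log2 fold change was 0.15, against -0.01 for all tested genes. Shares over all tested genes were 8.23% higher and 12.7% lower unadjusted, and 3.24% and 6.61% in DESeq2. Nostrin, which traffics the endothelial synthase, had 37.5 ± 9.30 FPKM in wild-type and 60.5 ± 4.70 FPKM in Muc2-/-, and Qdpr, which recycles the synthase cofactor tetrahydrobiopterin, had 37.4 ± 5.63 and 40.1 ± 21.9 FPKM (SD, n = 3 each). These were named as the list's most abundant members, and the genes that follow after their values were seen. Gch1, the first enzyme of tetrahydrobiopterin synthesis, stood at 6.40, 6.58 and 5.55 FPKM in wild-type and 13.3, 11.7 and 15.6 FPKM in Muc2-/-, without overlap (log2 fold change 1.11, SE 0.19, edgeR adjusted p = 0.0868). Ass1, which remakes arginine from citrulline, averaged 26.8 ± 12.1 and 14.0 ± 4.89 FPKM, with overlap. Of the 20 tested genes 7 were higher and 3 lower without overlap, against 13.3% and 15.2% of all tested genes. They included Ddah1 (log2 fold change 1.67), Gucy1a1 (-2.33) and Gucy1b1 (-2.16), each with an edgeR adjusted p of 0.101.

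The other nitric oxide synthases did not share the pattern of Nos2. Nos1, the neuronal enzyme, stood at 6.27, 4.10 and 1.06 FPKM in wild-type 1, 2 and 3 and at 0.758, 0.217 and 0.711 FPKM in Muc2-/- 1, 2 and 3 (log2 fold change -2.79, SE 0.70, edgeR adjusted p = 0.104). Within wild-type it had the order of the summed smooth muscle markers (9398, 5572 and 2821 FPKM). Within Muc2-/- it did not (2148, 2418 and 1164 FPKM). Nos3, the endothelial enzyme, averaged 0.294 ± 0.0902 FPKM in wild-type and 0.378 ± 0.0173 FPKM in Muc2-/- (edgeR adjusted p = 0.715). Per length, Nos1 was more abundant than Nos2 in every wild-type library and less abundant in every Muc2-/- library.

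Duox2 was among the more abundant oxidase transcripts in both genotypes and varied widely within each. It stood at 28.8, 36.6 and 9.39 FPKM in wild-type 1, 2 and 3 and at 40.7, 17.9 and 72.3 FPKM in Muc2-/- 1, 2 and 3. The groups overlapped, because Muc2-/- 2 lay below wild-type 1 and 2. The highest library exceeded the lowest 3.90-fold in wild-type and 4.04-fold in Muc2-/-, and the log2 fold change of 0.78 (SE 0.60, edgeR adjusted p = 0.496) was close to its standard error. Leaving out Muc2-/- 3 brought it to 0.22 and leaving out Muc2-/- 2 to 1.19. With the length trend of the libraries as an offset it was 0.87 (edgeR adjusted p = 0.399).

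Its maturation factor Duoxa2 separated the groups. Duoxa2 stood at 18.3, 27.3 and 5.48 FPKM in wild-type 1, 2 and 3 and at 47.1, 43.2 and 77.3 FPKM in Muc2-/- 1, 2 and 3. Wild-type 3 was the lowest library for Duox2 and Duoxa2 alike, and Muc2-/- 3 the highest. The log2 fold change of Duoxa2 was 1.68 (SE 0.54), or 3.21-fold, with an edgeR adjusted p of 0.141. DESeq2 gave 0.0109 and edgeR with no filter on low counts 0.0211, and over the 16 alternatives the adjusted p ran up to 0.345.

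Within each library the ratio of Duoxa2 to Duox2 compares the partners per length and does not depend on library scaling. In wild-type 1, 2 and 3 it was 0.633, 0.747 and 0.584. In Muc2-/- 1, 2 and 3 it was 1.16, 2.41 and 1.07. Per listed length, the oxidase was thus the higher partner in every wild-type library and the maturation factor in every Muc2-/- library. By read counts Duox2 exceeded Duoxa2 in every library. Which partner is the higher therefore depends on the listed lengths, and reads from the bases that Duoxa2 shares with Duoxa1 cannot be assigned with certainty. The mean log2 ratio was -0.62 ± 0.18 in wild-type and 0.53 ± 0.65 in Muc2-/- (SD, n = 3 each), a difference of 1.14 (exact two-sided permutation test, p = 0.1, the smallest that 20 arrangements allow, and 0.367 after Benjamini-Hochberg adjustment over 11 ratios). The highest ratio was in Muc2-/- 2, the library enriched in short transcripts, and the listed lengths are 6771 bases for Duox2 and 1592 for Duoxa2. With each library's length trend removed, a choice made after seeing the data, the wild-type ratios became 0.710, 0.769 and 0.598 and the Muc2-/- ratios 1.19, 1.83 and 1.13, still without overlap. Without Muc2-/- 2 the difference was 0.77.

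**Figure D5:**
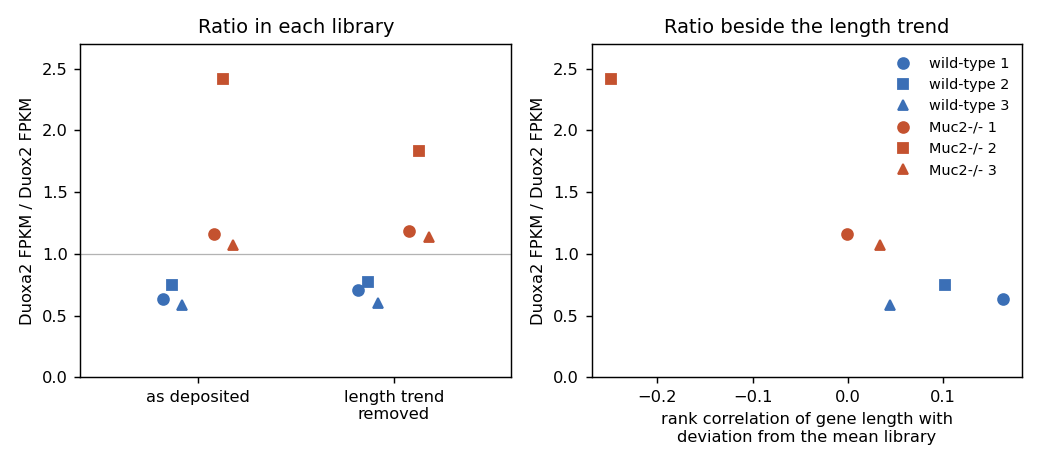
Ratio of Duoxa2 to Duox2 FPKM in each library, as deposited and with the length trend of each library removed (left), and the deposited ratio against the rank correlation of gene length with deviation from the mean library (right). All wild-type ratios are below 1 and all Muc2-/- ratios above it, and Muc2-/- 2 is apart on both measures.

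The second pair of the cluster was near the limit of detection. Duox1 had 7, 2 and 2 counts in wild-type 1, 2 and 3 and 10, 4 and 6 counts in Muc2-/- 1, 2 and 3, too few to be tested. The ratio of the summed counts was 2.20, and counting error alone allows 1.00 to 5.08 at 95%. Duoxa1, its maturation factor, stood at 0.432, 0.219 and 0.122 FPKM in wild-type and at 0.580, 0.389 and 1.04 FPKM in Muc2-/- (log2 fold change 1.35, SE 0.63, edgeR adjusted p = 0.271). Wild-type 1 lay above Muc2-/- 2, so the groups overlapped. Duoxa1 counts, from 10 to 67, were small beside the 180 to 1986 counts of the overlapping Duoxa2.

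The NOX1 complex showed no common direction. Nox1 (chromosome X, 132987170 to 133122705) stood at 5.85, 1.69 and 4.08 FPKM in wild-type 1, 2 and 3 and at 3.81, 0.835 and 4.80 FPKM in Muc2-/- 1, 2 and 3. The groups overlapped across almost their whole range, with a log2 fold change of -0.31 (SE 0.65, edgeR adjusted p = 0.824). The sign turned without wild-type 1 (0.13) and without Muc2-/- 2 (0.16), so no direction can be given. Noxo1 (chromosome 17, 24915208 to 24919503) had only 11 to 49 counts per library and averaged 0.583 ± 0.192 FPKM in wild-type and 0.496 ± 0.233 FPKM in Muc2-/- (edgeR adjusted p = 0.839). Its sign turned without wild-type 3 (0.02) and without Muc2-/- 2 (0.10).

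Noxa1 (chromosome 2, 24975679 to 24985161), the activator subunit, had the smallest spread within groups of the oxidase transcripts. It stood at 29.8, 37.8 and 29.98 FPKM in wild-type 1, 2 and 3 and at 24.3, 19.8 and 26.2 FPKM in Muc2-/- 1, 2 and 3. All Muc2-/- libraries were lower, and the spread within a group was 1.27-fold and 1.32-fold. The log2 fold change was -0.49 (SE 0.20, edgeR adjusted p = 0.210), negative in all 16 alternatives, none of which called it. Relative to Nox1, Noxa1 was 5.10 to 22.4 times as abundant per length in wild-type and 5.47 to 23.7 times in Muc2-/-, with a difference in mean log2 ratio of -0.01 (exact two-sided permutation p = 1).

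Cyba (chromosome 8, 123151515 to 123159669) encodes p22phox, which NOX1, NOX4 and the phagocyte oxidase share. It was the most abundant member per length in every library. It stood at 65.3, 57.3 and 76.2 FPKM in wild-type 1, 2 and 3 and at 100, 167 and 124 FPKM in Muc2-/- 1, 2 and 3, without overlap. The log2 fold change was 0.95 (SE 0.23), or 1.94-fold, with an edgeR adjusted p of 0.103. DESeq2 (0.0122) and edgeR with no filter on low counts (0.0364) called it, and over the 16 alternatives the adjusted p ran up to 0.290. Cyba has a listed length of 1039 bases and was highest in Muc2-/- 2, the library with the length trend. With that trend as an offset the log2 fold change was 0.85 (edgeR adjusted p = 0.0901).

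Genes of the phagocyte oxidase, which uses the same p22phox, stood higher in Muc2-/-, but none was called. The log2 fold change was above 0 in all 8 tested of 9 listed genes (median 0.43). At an unadjusted p under 0.05 edgeR had 2 of them higher (8.23% of all tested genes), and DESeq2 called 1 higher (3.24% of the genes it tested). Rac1, the GTPase that NOX1 and the phagocyte oxidase need, had 72.1 ± 14.7 FPKM in wild-type and 105 ± 12.2 FPKM in Muc2-/-, and Rap1a, a related GTPase, 35.4 ± 3.22 and 48.1 ± 11.6 FPKM (SD, n = 3 each). Cybb, the catalytic subunit of phagocytes, named after its values were seen, stood at 1.55, 0.521 and 0.968 FPKM in wild-type 1, 2 and 3 and at 1.71, 0.916 and 2.90 FPKM in Muc2-/- 1, 2 and 3, with overlap.

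Nox4 (chromosome 7, 86895304 to 87047918) was the only member other than Noxa1 whose Muc2-/- libraries all lay below wild-type. Its counts were 23, 40 and 7 in wild-type 1, 2 and 3. In Muc2-/- 1, 2 and 3 they were 0, 0 and 4. At 0 counts the libraries allow up to 0.179 CPM in Muc2-/- 1 and 0.198 CPM in Muc2-/- 2, counted as 3 reads, while wild-type 3 stood at 0.334 CPM and Muc2-/- 3 at 0.247 CPM. The summed counts, 70 and 4, gave a level 14.5-fold lower in Muc2-/-, and counting error alone allows 5.40 to 54.6 at 95%. Nox4 was below the count filter of the main test. DESeq2 gave a log2 fold change of -3.86 (adjusted p = 0.0331), and edgeR with no filter -3.76 (0.0751). Of the wild-type counts 40 came from wild-type 2, and all 4 Muc2-/- counts came from Muc2-/- 3. Where Nox4 passed the filter with 1 library left out, edgeR gave -3.21 without Muc2-/- 1 (adjusted p = 0.258), -3.22 without Muc2-/- 2 (0.228) and -4.22 without wild-type 3 (0.0761). Without Muc2-/- 3 the Muc2-/- counts were all 0, and the fitted value of -7.47 (0.289) is no bound.

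Smooth muscle markers also stood lower in Muc2-/-, with none called by edgeR and 10 called by DESeq2. Over all tested genes 12.7% were lower at an unadjusted p under 0.05, and DESeq2 called 6.61% lower. All 12 smooth muscle markers had a negative log2 fold change (median -1.70, 11 at an unadjusted p under 0.05), and the summed level ran from 2821 to 9398 FPKM in wild-type and from 1164 to 2418 FPKM in Muc2-/-. Of 10 fibroblast markers 9 were negative (median -0.63), 3 at an unadjusted p under 0.05 and 3 in DESeq2, and their sums overlapped (146 to 301 FPKM in wild-type and 106 to 154 FPKM in Muc2-/-). Endothelial sums overlapped as well (28.9 to 32.1 FPKM and 28.5 to 33.5 FPKM), with 8 of 10 negative. Nox4 was highest in wild-type 2 while the smooth muscle and fibroblast sums were highest in wild-type 1. The part of muscle or fibroblast content in the Nox4 values was not tested.

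Epithelial markers stood higher in Muc2-/-, with none called by edgeR and 4 called by DESeq2, which called 3.24% of all its tested genes higher. All 12 epithelial markers had a positive log2 fold change (median 0.84), and their summed level was 6585, 10704 and 12886 FPKM in wild-type 1, 2 and 3 and 15633, 24434 and 16643 FPKM in Muc2-/- 1, 2 and 3. Measured against 10000 FPKM of these markers, Nos2 was 1.29, 0.583 and 0.220 in wild-type and 5.37, 1.46 and 14.3 in Muc2-/-, still without overlap though Muc2-/- 2 lay close to wild-type 1. Duoxa2 was 27.7, 25.5 and 4.25 in wild-type and 30.1, 17.7 and 46.4 in Muc2-/- on this scale. The groups now overlapped, because Muc2-/- 2 lay below wild-type 1 and 2. Muc2-/- 2 is the library enriched in short transcripts and had the highest marker sum. Duox2 was 43.8, 34.2 and 7.28 in wild-type and 26.0, 7.32 and 43.4 in Muc2-/-, nearly the same range. Noxa1 was 45.3, 35.3 and 23.3 in wild-type and 15.5, 8.11 and 15.8 in Muc2-/-, lower in every Muc2-/- library. Noxa1 itself was already lower, and the marker sum higher, in every Muc2-/- library. Its ratio therefore had to separate the groups, and its permutation p could only be the smallest possible, so it adds no separate test. The exact two-sided permutation p was 0.1, the smallest possible, for Nos2 and Noxa1 (0.367 adjusted over 11 ratios), 0.4 for Duoxa2 and Nox1, 0.8 for Duox2 and 0.2 for Noxo1. Against Epcam alone the difference in mean log2 ratio was 1.31 for Duoxa2 and 0.16 for Duox2, where all 12 markers gave 1.01 and -0.13.

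Signals known to induce Duox2 and Nos2 were examined from listed cytokines, receptors and transcription factors. Among 24 cytokine and receptor genes 18 were tested, 0 called, and 3 were higher at an unadjusted p under 0.05 (DESeq2: 2; median log2 fold change 0.35). The most abundant were the receptors Ifngr1 (95.2 ± 23.6 and 88.2 ± 38.1 FPKM) and Il17rc (60.1 ± 9.49 and 88.1 ± 30.4 FPKM in wild-type and Muc2-/-; SD, n = 3 each). The cytokines that follow were named after their values were seen. Ifng had 0, 0 and 0 counts in wild-type and 1, 0 and 8 in Muc2-/- 1, 2 and 3, Il22 had 5 and 2 counts per group and Il17a 1 and 5. Tnf, another known inducer of Nos2, had 28, 14 and 6 counts in wild-type and 38, 77 and 79 counts in Muc2-/- 1, 2 and 3, without overlap (edgeR log2 fold change 2.25, adjusted p = 0.124). Il1b was higher in every Muc2-/- library (9, 7 and 3 counts against 70, 156 and 154, edgeR log2 fold change 4.56, adjusted p = 0.0544, 1.12e-11 to 0.240 over the alternatives) and was lowest in Muc2-/- 1, where Nos2 was lowest in Muc2-/- 2. Of 18 transcription factor genes 17 were tested, and 1 was called, Nfkbiz, whose product directs a subset of NF-kappaB targets. It rose from 5.90, 6.35 and 4.90 FPKM to 18.4, 17.1 and 25.5 FPKM (log2 fold change 1.81, SE 0.23, edgeR adjusted p = 0.0456). The call was lost in 7 of 16 alternatives, among them the fits without wild-type 1, wild-type 2, Muc2-/- 1 or Muc2-/- 3 (adjusted p up to 0.209), and the log2 fold change was 1.63 or more in all. No transcription factor was called lower, and 6 were higher unadjusted and in DESeq2. For both lists the background share of genes higher was 8.23% unadjusted and 3.24% in DESeq2.

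Genes listed for the removal of peroxide and superoxide, with the aquaporins Aqp3 and Aqp8 among them, did not pass the threshold in edgeR. Of 21 listed genes 20 were tested, 0 called, and 3 were higher and 1 lower unadjusted (DESeq2: 1 and 0), with a median log2 fold change of 0.26. The 1 lower was Aqp8, a channel and not a removal enzyme (log2 fold change -0.62, edgeR unadjusted p = 0.0422). Over all tested genes 8.23% were higher and 12.7% lower unadjusted, and DESeq2 called 3.24% and 6.61%. Txn1, the cytosolic thioredoxin, had 1177 ± 182 FPKM in wild-type and 2467 ± 1465 FPKM in Muc2-/-, and Prdx6, a peroxiredoxin, had 711 ± 385 and 755 ± 204 FPKM (SD, n = 3 each). The high Muc2-/- value of Txn1 came from Muc2-/- 2 (4157 FPKM, against 1580 and 1663 FPKM in Muc2-/- 1 and 3). That library is enriched in short transcripts, and Txn1 has a listed length of 1051 bases. Among 9 other oxidases and peroxidases 5 were tested and 0 called (1 higher and 2 lower unadjusted, and 1 and 0 in DESeq2). Poldip2, a binding partner of NOX4, had 12.1 ± 1.23 and 8.14 ± 2.50 FPKM, and Xdh, xanthine dehydrogenase, had 5.58 ± 1.71 and 14.4 ± 12.9 FPKM. Lpo, a peroxidase that uses hydrogen peroxide, was named after its values were seen. It stood at 2.47, 6.59 and 2.00 FPKM in wild-type and at 12.4, 11.3 and 8.46 FPKM in Muc2-/-, without overlap (edgeR log2 fold change 1.51, adjusted p = 0.127). Nox3 and Epx had 0 counts in all 6 libraries.

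The likeness of profiles was measured as the root mean square difference of log2 CPM over the 6 libraries, after each gene's own mean was removed. Among the 8 tested members the closest pair was Noxa1 and Noxo1 (0.41), followed by Duox2 and Duoxa1 (0.53) and by Nox1 and Noxo1 (0.62). This measure is also small for genes that vary little. Within wild-type, library 2 was the highest for Noxa1 and the lowest for Noxo1. Duox2 and Duoxa2 were 0.68 apart, and Nos2 was nearest to Duoxa2 (1.16). Of 10779 other protein-coding genes at 5 CPM or more, those nearest to Duox2 were Tac1 (0.35), Mmp28 (0.35) and Clca3a2 (0.39). Genes near to Nox1 included Piezo1 (0.33) and Cd83 (0.34), which like Nox1 were lowest in Muc2-/- 2 and highest in wild-type 1. These are descriptions over 6 libraries that share depth and tissue makeup.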

How the data were processed

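Libraries of polyadenylated RNA were sequenced with paired-end reads, per the labels' protocols. For each gene the authors deposited unnormalized whole-number counts and, separately, FPKM. Per the submitters' processing notes, which assign no role, the tools include DESeq2 1.20.0, featureCounts 1.5.0-p3, StringTie 1.3.3b and HISAT2 2.0.5, and the genome is mm10. FPKM were found proportional to counts over listed length and DESeq2 size factor. All 10 members had the width but none the start and end of GENCODE M21 (mm10), so coordinates are printed as listed, of a build not named.

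Groups and replicate numbers came from the titles. The main test was the quasi-likelihood test of edgeR 4.0.16 under R 4.3.3 on the counts (TMM, filterByExpr with count 10 and total 15, genotype alone, Benjamini-Hochberg at 0.05). CPM use the library total times the TMM factor. Ratios of FPKM were compared by exact permutation over 20 arrangements. The procedure was run on simulated data with the same dispersion for every gene and only large effects. That setting differs from these libraries, so the run does not measure the power or error rate of the calls here.

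The members, 12 further gene lists, tests and alternatives were chosen with earlier results of these data known. From each list the called genes (up to 3) or else the 2 most abundant were named, for marker lists only those that bear on a result. Alternatives used DESeq2 1.42.0, RLE factors, other filters, limma 3.58.1 on log2(FPKM + 1) or log2(FPKM + 0.1), the replicate number as a block, and each library left out. After the data were seen, a length trend as an offset and a fit without both wild-type 1 and Muc2-/- 2 were added. Lowess on log2 length gave the trend. RefSeq windows were matched by symbol for 9 members. Some genes the naming rule selects are not reported here.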

Additional observations from a re-analysis of the deposited data

How the results depend on the processing

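No member passed the threshold in the main fit, and the number called higher was 3 in DESeq2, 3 with no filter on low counts and 1 with the replicate block. It was 0 to 1 when 1 library was left out (1, Nos2, without wild-type 3). The number called lower was 1 in DESeq2 (Nox4) and 0 in every other alternative. Of the member fold changes, those of Nox1 (0.13 without wild-type 1, 0.16 without Muc2-/- 2 and 0.59 without both, with a lowest value of -0.73 without Muc2-/- 3) and Noxo1 (0.02 without wild-type 3, 0.10 without Muc2-/- 2 and 0.059 without wild-type 1 and Muc2-/- 2, with a lowest value of -0.59 without Muc2-/- 1) changed sign. The 6 other tested members kept their sign in all alternatives.

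Over all genes, 17 were called higher and 3 lower. DESeq2 called 614 and 1253, edgeR with no filter 384 and 815, RLE factors 22 and 5, and the length offset 28 and 6. limma called 3 and 0 on log2(FPKM + 1), 4 and 0 on log2(FPKM + 0.1), and 37 and 9 on log2(FPKM + 1) with a minimum of 1 FPKM. Leaving out 1 library gave 0 to 272 higher and 0 to 954 lower, the highest without wild-type 3 and, for higher genes, 0 without wild-type 2. Leaving out wild-type 1 and Muc2-/- 2 together gave 1 and 0. The cause of these differences was not tested.

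The replicate block gave 225 higher and 448 lower, with Nos2 at 3.93 (edgeR adjusted p = 0.0222). Libraries of the same number deviated together with correlations of 0.101, 0.3004 and 0.0742 across genes. Each Muc2-/- library correlated best with the wild-type library of its own number. Wild-type 3 correlated about equally with Muc2-/- 3 and with Muc2-/- 1 (0.0772). The labels do not say whether the numbers mark pairs, and the main fit took genotype alone. Depth limits Duox1, Nox4, Noxo1 and Duoxa1, which had under 70 counts in every library.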
